A study of Mus musculus with 20 samples.

Results

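The genes described here are 10 genes of the growth hormone and prolactin cells of the mouse pituitary, taken by name from a list of 10 symbols out of the 24062 genes counted in each library. They are the hormone genes Gh and Prl, the transcription factor gene Pou1f1, and 7 receptor genes: Ghrhr, Ghsr, Gpr101, Sstr2, Sstr5, Drd2 and Agtr1b. The rule that picks them uses symbols and no measured value, but the list was chosen with earlier results of these data known. Poly(A) RNA was sequenced in 20 libraries, 10 of pituitary and 10 of inguinal white adipose tissue, a fat depot under the skin that is called iWAT below. Both tissues have 5 libraries with the genotype label wild type (WT) and 5 with the label KO for Klf14, which codes for a zinc finger transcription factor. All mice were C57BL/6N males on chow. The WT libraries come from mice of 21 weeks (33 and 34), 19 weeks (48 and 49) and 18 weeks (56), and the KO libraries from mice of 21 weeks (31, 32, 35 and 66) and 19 weeks (50). Libraries are named below by tissue, genotype label and the mouse number of the sample title. The labels do not state that each library of a group is a different animal, so each p-value compares with the spread between libraries, which may be technical. The labels do not describe the Klf14 allele.

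Somatotrophs secrete growth hormone and lactotrophs secrete prolactin, and both descend from a lineage that needs POU1F1, which binds the promoters of both hormone genes. Growth hormone release is driven by the hypothalamic peptide GHRH and by ghrelin and is held back by somatostatin. Prolactin release is held back by dopamine. In bulk tissue, fewer cells of a type and less RNA per cell cannot be told apart.

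Klf14 checks the genotype labels, and it was higher, not lower, in the pituitary libraries labelled KO. It had 417 to 679 reads in the 5 labelled KO libraries and 196 to 304 in the 5 WT libraries, a 2.01-fold difference (adjusted p = 7.645e-05, edgeR's quasi-likelihood test with Benjamini-Hochberg adjustment). The labels were kept, and every direction below is that of the libraries labelled KO against those labelled WT. Libraries held 13.6 to 17.6 M (mega) counts in the pituitary and 14.8 to 18.7 M in iWAT. The defining adipocyte genes separated the tissues: the 6 genes of that list summed to 8188 to 28032 CPM (counts per mega-count, on TMM-scaled library sizes unless stated) in iWAT and to at most 4.12 CPM in the pituitary, where Lep had no read. Within the pituitary, KO 66 had the highest sum of posterior lobe genes (450.0 CPM, against 193.2 to 301.2 in WT), KO 50 the highest of macrophage genes (143.1 CPM, against 58.6 to 71.5 in WT) and KO 32 the highest of corticotroph and melanotroph genes (14772 CPM, against 5106 to 9967 in WT).

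The promoters of Prl and Pou1f1 are shown because POU1F1 is known to act on both, and because they hold the letters TATNCAT, the core of its binding consensus, which were searched on both strands (ATGNATA on the reverse) in the 250 bases before each annotated start. The sequences are those of RefSeq on GRCm38.p6 (mm10), plus strand, chr13:27057320-27057569 for Prl and chr16:65520262-65520511 for Pou1f1, in lower case with the matches in capitals.
Prl: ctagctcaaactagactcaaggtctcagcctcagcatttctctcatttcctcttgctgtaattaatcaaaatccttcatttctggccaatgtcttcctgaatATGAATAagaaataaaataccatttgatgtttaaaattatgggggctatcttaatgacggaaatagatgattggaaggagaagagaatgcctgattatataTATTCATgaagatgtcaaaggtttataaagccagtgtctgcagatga
Pou1f1: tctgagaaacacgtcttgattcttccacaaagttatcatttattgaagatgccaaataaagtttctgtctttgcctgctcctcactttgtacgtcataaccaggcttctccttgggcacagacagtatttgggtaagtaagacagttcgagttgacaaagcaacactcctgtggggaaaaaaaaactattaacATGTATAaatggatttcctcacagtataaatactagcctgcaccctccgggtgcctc
Prl has 2 matches, whose first bases lie 148 and 47 bases before the start. Pou1f1 has 1 match, 57 bases before the more upstream of its 2 annotated starts, and none before the other. These letters occur in 7.92% of the 32851 promoters in the table, and at least 2 matches in 1.26% of them. Of the 10 genes, 7 matched the promoter table. Gpr101 has 1 match 245 bases before its start, and Ghsr, Sstr2, Drd2 and Agtr1b have none. Promoters of Gh, Ghrhr and Sstr5 were not analysed here. A match is a description of the letters and says nothing of binding in these tissues.

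In the counted annotation (mm10), Gh is a gene of 5 exons and 903 exon bases on chromosome 11 (106300261 to 106301896, minus strand), and Prl one of 5 exons and 894 exon bases on chromosome 13 (27057570 to 27065203, plus strand). Pou1f1 lies on chromosome 16 (65520629 to 65533981, plus strand, 6 exons), so the counted model begins downstream of the start whose promoter is shown. No exon of the 10 genes overlaps an exon of another gene. Of the stretches of 100 bases in their transcripts, none was found in transcripts of other genes, except 1.29% of those of Pou1f1.

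Growth hormone and prolactin transcripts took up 9.42 to 14.1% of all counts in the pituitary libraries, and neither differed between the genotype labels. Gh, which encodes growth hormone, stood at 72072 CPM in WT 33, 84486 in WT 56, 100387 in WT 49, 112018 in WT 48 and 112245 in WT 34. In the libraries labelled KO it stood at 80161 CPM in KO 31, 84192 in KO 66, 99189 in KO 32, 113601 in KO 35 and 120211 in KO 50. The groups overlapped over most of their range, with 2 low libraries in each. The log2 fold change of Gh was 0.05 (95% interval -0.31 to 0.41, adjusted p = 0.944, edgeR's quasi-likelihood test with Benjamini-Hochberg adjustment over 16389 genes).

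Prl, which encodes prolactin, stood at 19768 CPM in WT 33, 19798 in WT 56, 23527 in WT 34, 25039 in WT 48 and 26298 in WT 49. In the libraries labelled KO it stood at 18160 CPM in KO 31, 19476 in KO 66, 23693 in KO 32, 25540 in KO 50 and 26255 in KO 35. The groups again overlapped, and the libraries that were low in Gh were low in Prl. Its log2 fold change was -0.02 (95% interval -0.30 to 0.26, edgeR adjusted p = 0.977).

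The balance of the hormones needs no library scaling. There were 4.41 Gh reads per Prl read in KO 31, 4.19 in KO 32, 4.33 in KO 35, 4.71 in KO 50 and 4.32 in KO 66, and 3.65 in WT 33, 4.77 in WT 34, 4.47 in WT 48, 3.82 in WT 49 and 4.27 in WT 56. All labelled KO values fell inside the range of WT. As Prl reads per Gh read the means were 0.228 ± 0.00978 in labelled KO and 0.241 ± 0.0268 in WT (SD, n = 5 each). The log2 difference of -0.07 did not pass an exact two-sided permutation test over all assignments of the 10 libraries (p = 0.397). The smallest p that test can give is 0.00794.

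**Figure D1:**
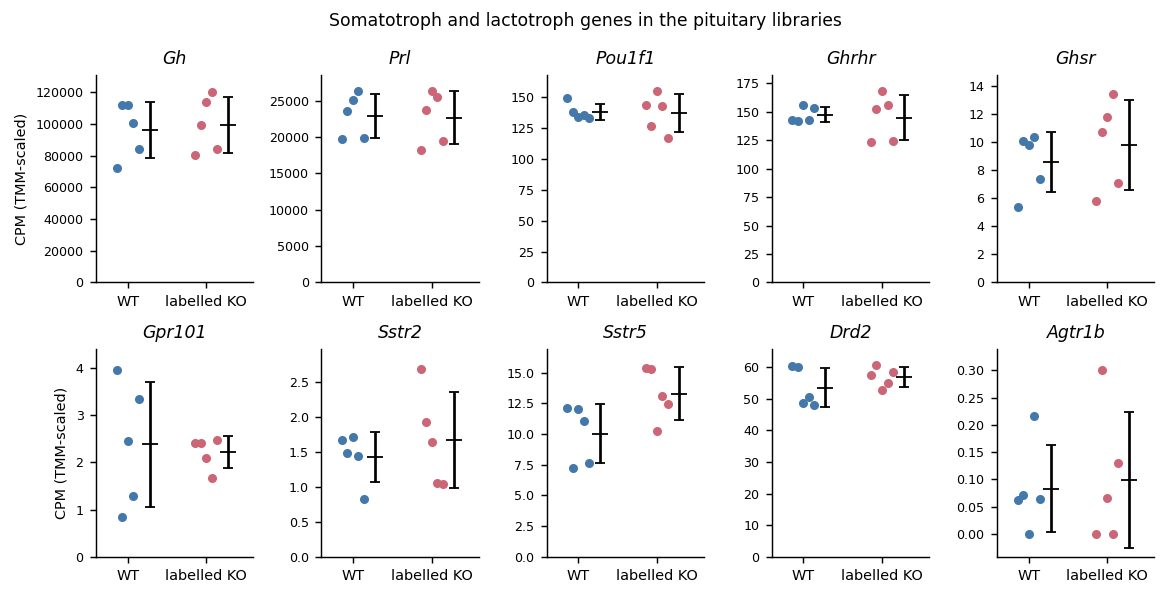
Levels of the 10 genes in the pituitary, in CPM on TMM-scaled library sizes, 1 panel per gene with its own axis. Each point is a library (5 WT, 5 labelled KO) and the bar is the mean ± SD. The groups overlap for every gene.

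Pou1f1, whose product specifies both cell types, was among the steadiest of the genes. It stood at 133.1 (WT 56), 133.8 (WT 48), 135.6 (WT 49), 138.0 (WT 34) and 149.1 CPM (WT 33), and at 116.8 (KO 66), 126.8 (KO 32), 143.2 (KO 50), 143.4 (KO 31) and 155.4 CPM (KO 35). All 5 WT values fell inside the range of the labelled KO libraries. The log2 fold change was -0.01 (95% interval -0.15 to 0.14, edgeR adjusted p = 0.978).

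Among the receptors that stimulate growth hormone release, Ghrhr, the GHRH receptor, stood at 145.0 ± 20.1 CPM in the labelled KO and 147.5 ± 6.69 CPM in WT (SD, n = 5 each). The labelled KO values ran from 123.9 (KO 31) and 124.1 (KO 66) to 168.7 CPM (KO 35), and the WT values from 142.3 (WT 34) to 155.8 CPM (WT 48), so the labelled KO libraries enclosed the WT libraries on both sides. Its log2 fold change was -0.03 (95% interval -0.20 to 0.15, edgeR adjusted p = 0.939). Ghsr, the ghrelin receptor, stood at 5.38 (WT 33), 7.37 (WT 56), 9.76 (WT 48), 10.0 (WT 34) and 10.4 CPM (WT 49), and at 5.82 (KO 31), 7.04 (KO 66), 10.7 (KO 32), 11.8 (KO 35) and 13.4 CPM (KO 50). The highest 3 libraries of Ghsr were labelled KO and the lowest was WT, but the groups overlapped (log2 fold change 0.18, 95% interval -0.36 to 0.72, edgeR adjusted p = 0.839). Gpr101, an orphan receptor whose duplication causes growth hormone excess in people, had few reads, 12 to 64 in WT and 22 to 43 in labelled KO. Its log2 fold change was -0.11, with a 95% interval of -0.83 to 0.60 (edgeR adjusted p = 0.934).

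Of the receptors that hold the hormones back, Sstr5, a somatostatin receptor, had the largest difference among the 10 genes. It stood at 7.21 (WT 34), 7.62 (WT 56), 11.1 (WT 49), 12.0 (WT 48) and 12.1 CPM (WT 33), and at 10.3 (KO 35), 12.5 (KO 66), 13.1 (KO 50), 15.3 (KO 32) and 15.3 CPM (KO 31). Of the 5 labelled KO libraries, 4 lay above every WT library, and KO 35 lay below 3 of them. The difference of 0.41 on the log2 scale (SE 0.16, 95% interval 0.06 to 0.76, 1.33-fold) had an unadjusted p of 0.0248 and an adjusted p of 0.351 in edgeR's quasi-likelihood test, and so did not pass. The exact two-sided permutation test of its CPM without TMM scaling gave p = 0.0794 before any adjustment.

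Sstr2, the other somatostatin receptor of the group, had 13 to 28 reads in WT and 14 to 48 in labelled KO libraries, with a log2 fold change of 0.24 (95% interval -0.36 to 0.85, edgeR adjusted p = 0.810). Drd2, the dopamine receptor through which prolactin is restrained, stood at 56.9 ± 3.10 CPM in the labelled KO and 53.5 ± 6.23 CPM in WT (SD, n = 5 each). The WT libraries held both a low set, 47.9 (WT 56), 48.6 (WT 48) and 50.7 CPM (WT 49), and a pair at 60.2 (WT 34) and 60.4 CPM (WT 33). That split follows age in WT, since the pair of 21 weeks was the higher one, but of the labelled KO mice the one of 19 weeks, at 54.9 CPM, lay among those of 21 weeks, at 52.9 to 60.8 CPM. The log2 fold change of Drd2 was 0.09 (95% interval -0.07 to 0.25, edgeR adjusted p = 0.723). Whether age bears on Drd2 was not tested.

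Agtr1b, an angiotensin receptor, was at the limit of detection, with 0 to 5 reads in each pituitary library (6 in all WT and 8 in all labelled KO libraries together). It did not pass the filter on low counts. Its paralog Agtr1a, which is named here after its values were seen, carried nearly all of the reads of the pair, with 53.1 ± 7.50 CPM in the labelled KO and 65.2 ± 7.49 CPM in WT (log2 fold change -0.30, edgeR unadjusted p = 0.0114, adjusted p = 0.269).

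None of the 9 genes tested passed in the pituitary, where edgeR called 0.549% of 16389 genes (0.415% higher and 0.134% lower in labelled KO). Sstr5 alone of the 9 had an unadjusted p under 0.05, as did 1792 of the 16389 genes. DESeq2 and limma voom called none of the 9 either. None of the 9 had labelled KO and WT libraries that did not overlap, against 2.83% of all genes tested. The median log2 fold change of the 9 was 0.05, and that of all genes tested was 0.0036. In simulated pituitary data of the same size, edgeR found 72% of the genes given a 1.5-fold change and 90% of those given a 2-fold one. Those genes were drawn at random from all genes tested, so the rates are not those of the 9 genes. The intervals of Gh, Prl, Pou1f1, Ghrhr and Drd2 reached at most 1.33-fold in either direction, while those of Ghsr, Gpr101, Sstr2 and Sstr5 reached 1.52-fold to 1.80-fold upward.

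**Figure D2:**
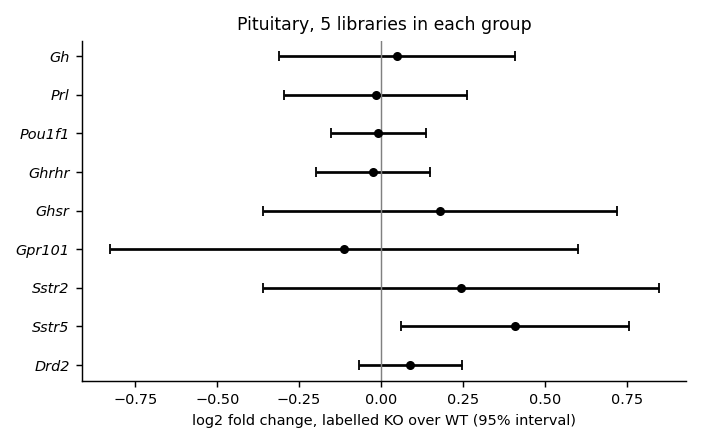
Log2 fold change of 9 genes in the pituitary, labelled KO over WT, with 95% intervals from edgeR (5 libraries in each group). The interval of Sstr5 (0.06 to 0.76) lies above 0 before adjustment for the 16389 genes tested, and those of the other 8 genes include 0.

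Per length of transcript, the hormones stood far above every receptor. In reads per kilobase and mega-count (RPKM), Gh had a level of 108368 ± 18482 and Prl of 25454 ± 3513 (SD, n = 10 pituitary libraries). Pou1f1 followed at 157.0 ± 12.6 RPKM, Ghrhr at 91.5 ± 8.87 and Drd2 at 35.7 ± 3.21. No library of one of these 5 genes overlapped with the next gene in the order. Sstr5 (4.26 ± 1.01 RPKM), Ghsr (2.07 ± 0.597), Sstr2 (0.940 ± 0.320) and Gpr101 (0.424 ± 0.168) came next, and each of these overlapped with its neighbour in at least 1 library. Agtr1b was last, at 0.0424 ± 0.0463 RPKM.

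The spread over libraries had a different order from the level. The coefficient of variation over the 10 pituitary libraries was 17.1% for Gh and 13.8% for Prl, where counting error alone gives 0.0817% and 0.169%, and only 8.05% for Pou1f1, 9.69% for Ghrhr and 8.99% for Drd2. The hormone genes thus varied more between libraries than the factor and the receptors of middling level. For Ghsr it was 28.9%, against a counting error of 8.47%. Sstr2 (34.1%) and Gpr101 (39.7%) had counting errors of 20.2% and 16.6%.

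The libraries low in one hormone gene were low in the other and in the ghrelin receptor. The 4 lowest libraries for Gh, Prl and Ghsr alike were KO 31, KO 66, WT 33 and WT 56, 2 of each label, and for none of the other 6 genes were these the 4 lowest. In these 4, Gh lay at 72072 to 84486 CPM, against 99189 to 120211 in the other 6. Prl lay at 18160 to 19798 CPM against 23527 to 26298, and Ghsr at 5.38 to 7.37 CPM against 9.76 to 13.4. The 4 libraries come from 3 mice of 21 weeks and the mouse of 18 weeks, while 3 other mice of 21 weeks are among the 6. Ghrhr, another stimulatory receptor, followed this split in part: KO 31 and KO 66 were its lowest libraries, but WT 56 stood at 153.7 CPM, above WT 34 and WT 49.

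The libraries lie in separate clusters by eye, so the size of r over all 10 libraries is not given for these pairs. Whether the clusters are distinct was not tested. In a test over all 10 libraries, Gh with Prl, Gh with Ghsr and Prl with Ghsr were the pairs among 36 that passed a permutation test on Pearson's r after Benjamini-Hochberg adjustment (Spearman's rho: Gh with Ghsr only). Within the 6 libraries with more Gh, Pearson's r was 0.18 for Gh with Prl (exact permutation p = 0.715), 0.53 for Gh with Ghsr (exact p = 0.272) and 0.39 for Prl with Ghsr (exact p = 0.458; adjusted p = 0.883 over the 36 pairs for each of the 3). These 6 were set apart by their own Gh, which narrows its range and lowers r, and the 4 low libraries are too few for an r of their own. With KO 50 and KO 66 left out, none of the 36 pairs passed over the remaining 8, although r was about as large for the 3 pairs. The summed levels of 9 lists of other pituitary, vessel, blood, macrophage and fibroblast genes, the total counts and the age of the mice were set against Gh, Prl and Ghsr, and none of the 33 relations had an unadjusted permutation p under 0.05 (r between -0.59 and 0.51, smallest adjusted p = 0.726). A sum mostly follows its most abundant genes. Cga, at a mean of 2553.5 CPM in the pituitary against 243.2 for Tshb, is in both the thyrotroph and gonadotroph lists, so these sums are not separate measures of each cell type.

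**Figure D3:**
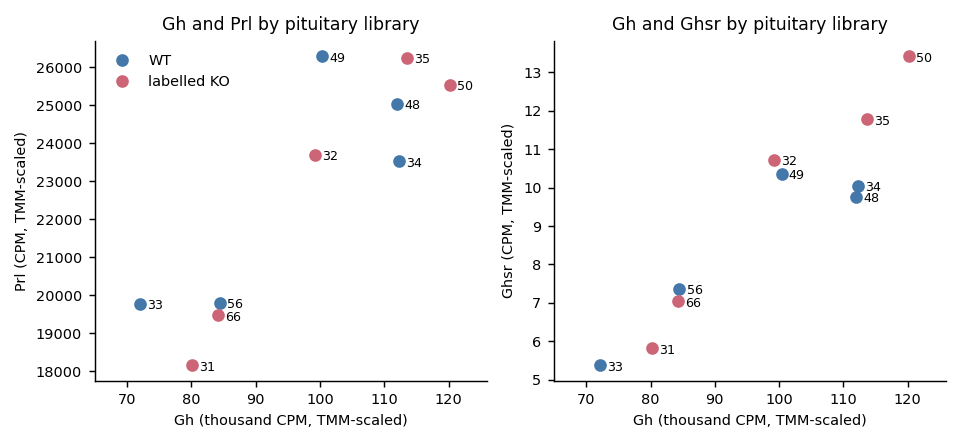
Prl (left) and Ghsr (right) against Gh in the 10 pituitary libraries, all in CPM on TMM-scaled library sizes, each point labelled with its mouse number. Libraries 31, 33, 56 and 66 lie apart at the lower left in both plots, and both genotype labels are in each cluster.

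The genes with the pattern most like Gh over the 10 pituitary libraries, among 11084 genes with a mean of at least 10 CPM, were B4galt1 (a galactosyltransferase, Pearson's r of log2 CPM 0.964), Sephs1 (a selenophosphate synthetase family member, 0.950) and Alg6 (a glucosyltransferase of N-glycan synthesis, 0.940). Those most like Prl were Pgm3 (an enzyme of UDP-GlcNAc synthesis, 0.958), Poc5 (a centriole protein, 0.939) and Slk (a protein kinase, 0.933). They are given as a description of likeness over libraries that share the same split. Ghsr, at a mean of 9.17 CPM, lay under the cut of 10 CPM and was not ranked, so the order does not place these genes above it. Over the 10 libraries B4galt1 ran from 71.7 to 86.0 CPM, Pgm3 from 97.4 to 118.9 CPM and Alg6 from 24.4 to 35.5 CPM, the last over about as wide a fold range as Prl.

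Genes that act with these 10 were counted from 5 lists, and no member of any list passed in a genotype comparison. In the pituitary, 0 of 4 tested ligands, 0 of 16 tested other receptors, 0 of 29 G protein and cAMP signalling genes, 0 of 13 lineage transcription factors and 0 of 11 genes of the growth hormone and prolactin response passed edgeR's test. At an unadjusted p under 0.05 there were 1, 3, 4, 4 and 2, in that order, where 1792 of all 16389 genes tested had one. Among these, named after their values were seen, Rxrg, a retinoid X receptor gene of the lineage list, had a log2 fold change of 0.22 (adjusted p = 0.0965), and Gal, which encodes galanin, a peptide known from lactotrophs, one of 1.09 (11.04 ± 5.32 against 5.21 ± 3.60 CPM, SD, n = 5 each, adjusted p = 0.434). Of the lineage transcription factors 3 of 13 had a positive log2 fold change (median -0.12), and of the response genes 9 of 11 (median 0.15), beside a median of 0.0036 over all genes tested. None of the 12 other pituitary genes passed either (smallest adjusted p = 0.0558), nor did a marker of any other cell type. Gnas, which encodes the stimulatory G protein alpha subunit that GHRHR signals through, was the most abundant gene of the 5 lists in the pituitary, at 2708 ± 202 CPM in the labelled KO and 2713 ± 116 CPM in WT.

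In iWAT the 10 genes were at or near 0 in 9 of the 10 libraries. Their summed count was 11 to 38 reads in those 9 libraries and 1591 in KO 32. In WT, Gh had 6 reads in mouse 33, 5 in 34, 15 in 48, 3 in 49 and 7 in 56, and Prl had 3 reads in mouse 33 and 0 in the other 4. In the libraries labelled KO, Gh had 19 reads in mouse 31, 1330 in 32, 5 in 35, 0 in 50 and 3 in 66. Prl had 0 reads in KO 31, 235 in KO 32, 0 in KO 35, 0 in KO 50 and 1 in KO 66. Without KO 32, then, the labelled KO libraries covered nearly the same range of hormone reads as WT. Where a gene had 0 reads, a count of 0 allows up to 0.161 to 0.203 CPM in a single library (3 counts, counting error only).

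Among the receptors, Sstr2 was the one with reads in every iWAT library, 3 to 8 in WT and 4 to 11 in labelled KO. Ghrhr and Sstr5 had no read in any WT library, and 4 and 6 in all labelled KO libraries together. Pou1f1 had 4 reads in all WT and 17 in all labelled KO libraries, 8 of them in KO 32. Agtr1b had 9 and 11 reads, as few as in the pituitary, whereas Agtr1a stood at 19.7 ± 4.11 CPM in WT and 19.1 ± 8.09 CPM in labelled KO iWAT (SD, n = 5 each). None of the 10 genes passed the filter on low counts, so none was tested between the labels in iWAT in the main fit. Over all 16105 genes tested there, edgeR called 0% (0 genes, 89 at an unadjusted p under 0.05) and DESeq2 called 0 as well. Without the filter no member passed either (edgeR, adjusted p = 0.9999 for each).

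**Figure D4:**
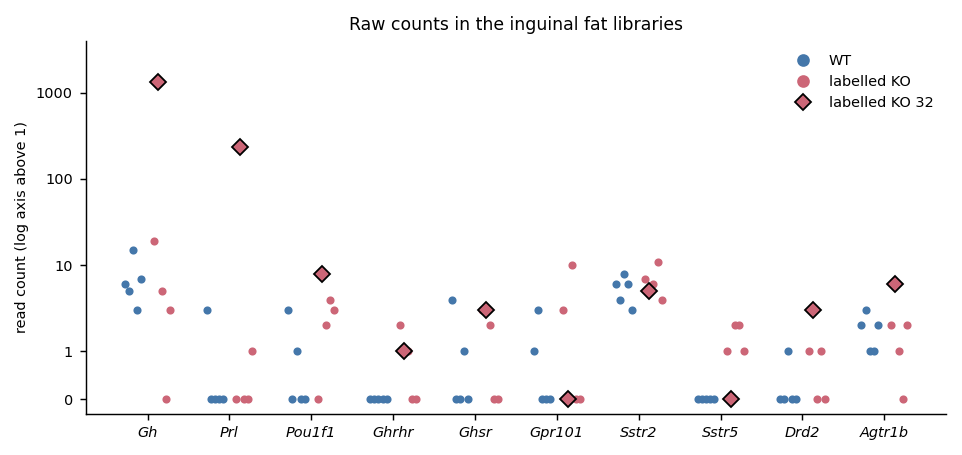
Raw read counts of the 10 genes in the iWAT libraries, on a log axis above 1 and linear below it. Each point is a library, and the diamond is KO 32, which held 1330 Gh and 235 Prl reads while every other library held at most 19 and 3.

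The mRNA of the receptors for both hormones was present in iWAT, in cells that bulk tissue does not tell. Prlr, the prolactin receptor, which is named after its values were seen, varied widely, from 5.03 to 278.4 CPM over the 10 libraries with a median of 10.8 CPM. Ghr, the growth hormone receptor, was the most abundant of the response genes there, at 797.4 ± 198 CPM in the labelled KO and 715.8 ± 402 CPM in WT, followed by Igf1, the growth factor gene that growth hormone induces, at 215.5 ± 67.3 and 186.1 ± 69.8 CPM (SD, n = 5 each). Of the 12 response genes tested in iWAT, 0 passed and 0 had an unadjusted p under 0.05 in edgeR. In simulated iWAT data, edgeR found 4% of the genes given a 1.5-fold change and 32% of those given a 2-fold one. Changes of this size were thus mostly missed there, in genes drawn at random from all genes tested.

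The genes passed the filter in the comparison of tissues only through the pituitary, so the differences are given as sizes and their calls as no support. In WT, pooled over 5 libraries and scaled by their total counts, Gh was 214426-fold higher in the pituitary (counting interval 154885 to 306154) and Prl, with 3 reads in iWAT, 612194-fold (209481 to 2968585). Ghrhr and Sstr5 had no read in WT iWAT. Set against 3 counts over the group of iWAT libraries, Ghrhr was 3968-fold and Sstr5 270.6-fold higher. The lower ends of their counting intervals were 3227-fold and 220.1-fold. Drd2, with 1 read in iWAT, was 4309-fold higher (773.4 to 170207) and Pou1f1 2780-fold (1086 to 10202). The ratio was smaller for Ghsr (137.0-fold, 58.7 to 421.9) and Gpr101 (49.2-fold, 19.2 to 180.7). Sstr2 differed least among the genes that passed the filter, 4.27-fold (2.94 to 6.48), and Agtr1b had a ratio of 0.706 (0.372 to 1.54), whose interval includes 1. Among the lists, edgeR called 11 of 13 lineage transcription factors higher in the WT pituitary and 2 lower. It called 8 of 15 other receptors higher and 4 lower, and 14 of 28 signalling genes higher and 11 lower. Of 4 ligands it called 2 higher and 2 lower, and of 12 response genes 2 higher and 7 lower. Over all 17023 genes tested between the tissues in WT it called 79.1% (40.2% higher and 38.9% lower in the pituitary). In labelled KO it called 75.1% of 16905 genes (37.3% higher and 37.8% lower in the pituitary).

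In the libraries labelled KO, the same ratio was 6033-fold for Gh and 7914-fold for Prl, and it rested on iWAT KO 32. Without that library it was 248326-fold for Gh (counting interval 170677 to 376819), close to the WT value, and Prl had 1 read left in iWAT. Pou1f1 rose from 671.3-fold to 1039-fold without it. Sstr2 stayed at 4.35-fold with it and 4.20-fold without it.

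The test of whether the difference between the labels differed between tissues turned on the same library for the hormones. Over all 20 libraries the log2 difference was -5.32 for Gh (SE 1.79, unadjusted p = 0.00807) and -6.16 for Prl (SE 2.12, unadjusted p = 0.00929). Neither passed over 17731 genes (adjusted p = 0.99997 each, edgeR's quasi-likelihood test), of which it called 0% (0 genes, 427 at an unadjusted p under 0.05, 1 gene by DESeq2). Without iWAT KO 32 the values were 0.22 for Gh and 0.98 for Prl. The 9 genes tested passed the filter there only through the pituitary, and Pou1f1, Ghrhr and Sstr5 had at most 17 iWAT reads in either group, so these p-values too are given as no support.

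The hormone reads in iWAT KO 32 came with reads of other pituitary genes. Gh stood at 0.0900% of its mean pituitary level (counting interval 0.0853 to 0.0950%) and Prl at 0.0684% (0.0599 to 0.0777%). Pomc, the corticotroph and melanotroph hormone gene, had 98 reads, against 3 to 13 in the other 9 libraries, or 0.0748% of its pituitary level (0.0607 to 0.0912%). Cga, the shared alpha subunit of the glycoprotein hormones, had 39 reads, against 0 or 1, or 0.101% (0.0717 to 0.138%), and Fshb had 7 reads, against 0 or 1, or 0.0892% (0.0359 to 0.184%). These 5 genes were picked after their values were seen, as those far above the other libraries. The other 9 of the 12 other pituitary genes stood at 0.0754% (Scg2) to 1.44% (Gnrhr) of their pituitary level. Of these, Chga had 18 reads against 1 to 8, or 0.175% (0.104 to 0.276%). Chgb (39 against up to 35), Scg2 (30 against up to 24) and Tshb (9 against up to 8) lay just above the highest other library. Lhb (7 against up to 9), Pcsk1n (5 against up to 8) and Pcsk2 (9 against up to 22) lay below the highest other library. The 12 genes summed to 277 reads in KO 32 and to 27 to 112 in the other 9 libraries, in each of which 9 to 11 of the 12 had a read.

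The receptor genes had few reads in that library. At the share of Gh, Ghrhr would have 1.99 reads and Pou1f1 1.87, and they had 1 and 8. Of the genes that would have under 1 read at that share, Drd2 had 3, against 0 or 1 in the other libraries. Agtr1b had 6, against 0 to 3, and Ghsr had 3, inside its range of 0 to 4. Sstr5 and Gpr101 had 0, and Sstr2 had 5, inside its range of 3 to 11 in the other libraries. Pou1f1 at 8 reads was above the other 9 libraries, which had 0 to 4.

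The balance of the hormones in iWAT KO 32, a single library, lay outside the range of the pituitary libraries. It had 5.66 Gh reads per Prl read, against 4.19 in pituitary KO 32, and the 10 pituitary libraries lay between 3.65 and 4.77. Prl made up 15.0% of the reads of both (95% Wilson interval 13.3 to 16.9%, counting error only), below the 19.3% of pituitary KO 32 and below the lowest pituitary library, WT 34 with 17.3%. The part of other pituitary transcripts in the hormone reads of this library was not tested.

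**Figure D5:**
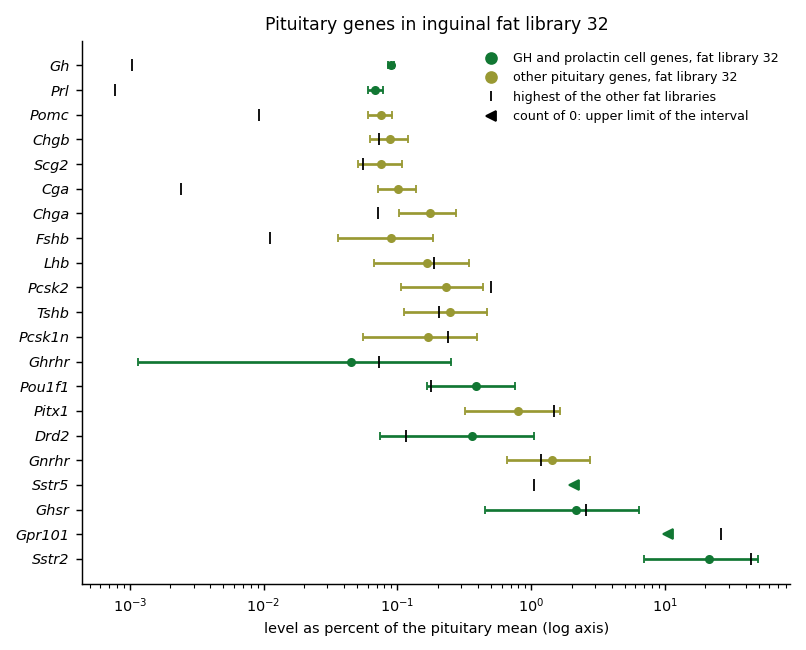
Levels in iWAT KO 32 as a percent of the mean pituitary level, on a log axis, for 9 of the 10 genes and 12 other pituitary genes in order of their pituitary level, with 95% counting intervals. Black ticks are the highest of the other 9 iWAT libraries. Gh, Prl, Pomc, Cga and Fshb lie well above their tick, between 0.0684 and 0.101%. Chga also lies above its tick, at 0.175% (0.104 to 0.276%), while the receptors do not stand clear of theirs.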

How the data were processed

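Whole-number read counts for each gene were deposited by the authors, who counted with featureCounts over the exons of a UCSC mm10 annotation, with primary alignments only and reads counted for every gene they overlap, per the file headers. No strand option is given there. The submitters' processing notes list featureCounts 1.4.4 and STAR 2.4.0. Per the labels' protocols, poly(A) libraries were read as about 46 M single-end reads of 100 nucleotides.

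Each comparison was fitted over all genes that passed filterByExpr with edgeR 4.0.16 (R 4.3.3) after TMM scaling, by its robust quasi-likelihood test at a Benjamini-Hochberg adjusted p of 0.05, without covariates, within the groups compared. The contrast of tissues and labels used all 20 libraries. Standard errors were taken from the fold change and its F statistic. CPM use TMM-scaled library sizes, and RPKM divide these by exon length; pooled ratios between tissues, shares of the pituitary level and limits for a count of 0 use total counts without TMM. Single values were compared by exact permutation over libraries, with CPM not TMM-scaled there. Correlations were tested by 100000 permutations of log2 CPM (prior count 2), or exactly below 10 libraries. Counting intervals are exact at 95% and, like the limit of 3 counts for a count of 0, cover counting error only. Libraries of a group differed by more than sampling noise (reduced chi-square of at least 4.70), and all 20 count as samples. The fits were tested on simulated counts with 200 changed genes.

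The 10 genes and all lists were chosen with earlier results of these data known. The naming rule took the 10 genes, Klf14, list genes past the threshold in a genotype comparison, the 3 most abundant genes of a list (not all are printed, and 1 item is not reported here), and the 3 genes most like Gh and Prl. The lists were ligands, other receptors, G protein and cAMP signalling, lineage transcription factors, growth hormone and prolactin response, other pituitary genes, and markers of the other cell types of both tissues. Alternatives were RLE scaling, no filter, a filter of 1 CPM in 5 libraries, library sizes without the 20 most abundant genes, DESeq2 1.42.0, limma voom 3.58.1, age, mice of 21 weeks, the mouse number as a block, and each library left out. Leaving out libraries in the correlations was added after seeing the data.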

Additional observations from a re-analysis of the deposited data

Results flagged for a closer look

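In 8 of 42 groups of 5 libraries, 1 library stood apart from the other 4 by a gap above Dixon's critical value, where chance flags about 1 group in 20 of continuous values. All 8 are iWAT groups, in which these genes are near 0, and with most counts at 0 a single read can exceed that value, so this rate does not apply to them. For 2 of them, both in iWAT KO 32, the counts are far above the others: Gh at 91.5 CPM (1330 reads, at most 19 in the other labelled KO libraries) and Prl at 16.2 CPM (235 reads, at most 1). Agtr1b was also highest in iWAT KO 32, at 0.413 CPM (6 reads, at most 2). The other 5 rest on 1 to 11 reads. Prl stood at 0.184 CPM in iWAT WT 33 (3 reads, 0 in the other 4), Ghsr at 0.245 CPM in iWAT WT 33 (4 reads, at most 1), Gpr101 at 0.583 CPM in iWAT KO 35 (10 reads, at most 3), Sstr2 at 0.761 CPM in iWAT KO 50 (11 reads, at most 7) and Drd2 at 0.0586 CPM in iWAT WT 48 (1 read, 0 in the other 4). No pituitary group of the 10 genes held such a library.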

How the results depend on the processing

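No alternative or left-out library brought any of the 9 genes tested past the threshold between the labels in the pituitary, and Sstr5 kept its direction (log2 fold change 0.31 to 0.49 with a library left out, adjusted p 0.154 to 0.830 over all alternatives). The number of all genes called there did move: 90 became 288 with DESeq2, 44 with age as a covariate, 5 with mice of 21 weeks only, and 50 to 112 with 1 library left out. Where a log2 fold change was near 0 its sign turned: Gh to -0.013 with limma voom and -0.040 to 0.12 with a library left out; Prl to 0.029 with age, 0.016 with mice of 21 weeks and -0.076 to 0.053 with a library left out; Ghrhr to 0.018 with age and -0.086 to 0.026; Pou1f1 to between -0.057 and 0.044; Gpr101 to 0.17 with limma voom and -0.32 to 0.15; Sstr2 to between -0.0017 and 0.37; and Drd2 to -0.070 with mice of 21 weeks. In the difference between tissues, Gh ran from -5.75 to 0.22, Prl from -8.72 to 0.98 and Sstr2 from -0.30 to 0.30 with 1 library left out, with the upper values of Gh and Prl reached without iWAT KO 32; all genes called there were 1 with DESeq2 and 0 to 1 with a library left out (1 without iWAT WT 33). The causes were not tested.

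The Prl to Gh ratio kept its direction and side of the threshold (log2 difference -0.12 to -0.02 with a library left out). Of the correlations, 1 to 3 pairs passed with a library left out (1 without KO 31 or WT 56), 0 without KO 50 and KO 66, 0 with mice of 21 weeks only and 0 within the 6 libraries with the highest Gh, all with fewer libraries to test. For Gh, Prl and Ghsr in pairs, r was 0.87 to 0.93 without KO 50 and KO 66 and 0.89 to 0.96 in mice of 21 weeks, but 0.18 to 0.53 within the 6, whose choice by Gh narrows its range. DESeq2 gave no adjusted p for Gh and Prl between tissues in labelled KO, and called the other 7 genes. Mouse numbers were not shown to pair the libraries across tissues, nor was pairing excluded. The same-number correlation was -0.07 to 0.12 over 14854 genes. Among 5 candidates each, 5 of 10 libraries matched their own number best, and this count was not tested against chance. With the replicate number as a block, 9 genes were called between tissues in both genotypes, 0 in the difference between tissues, and the labelled KO log2 difference between tissues was 16.4 for Gh and 15.4 for Prl, against 12.3 and 12.7 without it.

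Depth limits Gpr101, Sstr2 and Agtr1b in the pituitary and all 10 genes in iWAT, where few reads set the precision.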
